A study of Bos taurus with 12 samples.

Results

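The genes described here are those of the mevalonate pathway as far as lanosterol, measured in mammary gland biopsies of lactating Holstein cows before and during feed restriction. The members were chosen by name as the enzymes of the route: HMGCS1, MVK, PMVK, MVD, IDI1, FDPS, FDFT1, SQLE and LSS. All 9 were on the array, with 18 probes, out of 12787 genes with a named probe. The reduction of HMG-CoA to mevalonate, the step between HMGCS1 and MVK, was not analysed here.

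Each of 6 cows was biopsied on day 0 (CONT), when a lactation diet was fed ad libitum, and again on day 6 of restriction (REST), when the feed given covered 50% of the net energy for lactation (NEL) requirement. All were multiparous midlactation animals, and each biopsy gave 1 RNA sample and 1 one-colour array, so that there were 12 arrays with n = 6 in each group. CONT always came first, so that feeding level cannot be told apart from the order of the biopsies or from 6 more days of lactation. The submitters' design text counts 5 cows where the sample labels name 6, and the methods enrolled 6 Holstein cows and left 1 of them out for mastitis. By these counts the 6 cows on the arrays would include that animal, and which of them it was is not given in the sources used here.

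The mevalonate pathway builds the carbon skeleton of all sterols and isoprenoids from acetyl-CoA in the cytosol and endoplasmic reticulum. Acetoacetyl-CoA and acetyl-CoA are joined to HMG-CoA, which is reduced to mevalonate, phosphorylated, decarboxylated to isopentenyl diphosphate and condensed through farnesyl diphosphate to squalene. Squalene is then oxidised and closed to lanosterol, the first sterol of the route. Many of these enzymes are known targets of the sterol regulatory element binding protein SREBP2, and the lactating gland both makes cholesterol and secretes it into milk with the fat globule membrane.

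Of the 8 genes that could be tested, 7 were lower under restriction, where 9.27% of all 7930 genes tested were called lower: HMGCS1 fell to 21.2% of its CONT signal, MVD, IDI1, FDPS, FDFT1 and SQLE fell to between 41.4% and 50.5%, and MVK fell to 71.3%. PMVK was the exception, at 117% of CONT with no change called. LSS was too dim to be tested. Of the 16 member probes tested, 14 were called lower and none higher, where 8.78% of the 19403 probes tested on the array were called lower. The 16 include MVK probe 2, which passed the filter through CONT alone, and of the 15 that were above background on all arrays 13 were called lower. Those 15 include HMGCS1 probe 2, although its REST spot of cow 4 was marked by the scanner software and left out. Without that spot, HMGCS1 probe 2 also passes through CONT alone. A probe was called at an adjusted p below 0.10 in limma with the cow as a block. The fit without the cow called 14 of the 16 lower as well, against 2.73% of all tested probes. With all 43653 probes fitted, dim ones included, 6 of the 8 genes were called lower, against 0.531% of all probes, and MVK was not among them.

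The median change of the 8 genes was -1.14 on the log2 scale, beside -0.01 over the main probes of all 7930 genes tested, of which 51.6% were lower in REST. The main probe of a gene is its brightest tested probe, and the change is REST minus CONT in log2 signal. Ordered from the most negative change among the 7930 genes, HMGCS1 stood in place 4, IDI1 in place 24, MVD in place 27, SQLE in place 28, FDFT1 in place 32 and FDPS in place 43. MVK stood in place 275 and PMVK in place 6710.

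Levels below are log2 values relative to the 75th percentile of each array, so that 0 is a signal equal to that percentile. They can be compared between arrays for 1 probe but not between genes, since probes differ in how strongly they bind. A biopsy holds several cell types, and fewer cells of a type cannot be told apart from less RNA per cell. The 75th percentile lay between 252 and 390 intensity units on the slides of cows 1 to 4 and between 73.1 and 117 on the slide of cows 5 and 6, and it was higher in REST than in CONT in every cow, by 0.17 to 0.45 on the log2 scale. The scaling removed that shift, and its part in the changes was not tested.

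HMGCS1, the cytosolic enzyme that makes HMG-CoA and opens the route, had the largest change of the 8. Its main probe stood at 3.19, 1.76, 2.49, 3.27, 1.47 and 3.43 in CONT for cows 1 to 6. In REST the same cows read 0.60, 0.21, 0.38, -0.36, 0.71 and 0.63. Every REST array lay below every CONT array, and the spread between cows was wider in CONT (SD 0.83) than in REST (SD 0.40), which was not tested. The change was -2.24 with a standard error of 0.32 (adjusted p = 0.00883), or 4.72-fold lower. Cow 4, high in CONT and lowest in REST, moved by -3.63, whereas cow 5, lowest in CONT and highest in REST, moved by -0.76.

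The other HMGCS1 probes were dimmer and less settled. Probe 2 changed by -1.60 (standard error 0.26, adjusted p = 0.0175), but its REST spot of cow 4 was marked by the scanner software and left out, so that this value rests on 5 cows, all lower. With the marked spot kept, the change was -0.50 with an adjusted p of 0.740. That spot read 7492 intensity units, where the REST spots of the other cows read 30.4 to 63.0. Probe 3 was above background on 5 CONT and 3 REST arrays and was not tested. Its values were lower in 6 of 6 cows with no overlap of the groups, from -2.47 to -0.84 in CONT and from -4.53 to -2.69 in REST.

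**Figure D1:**
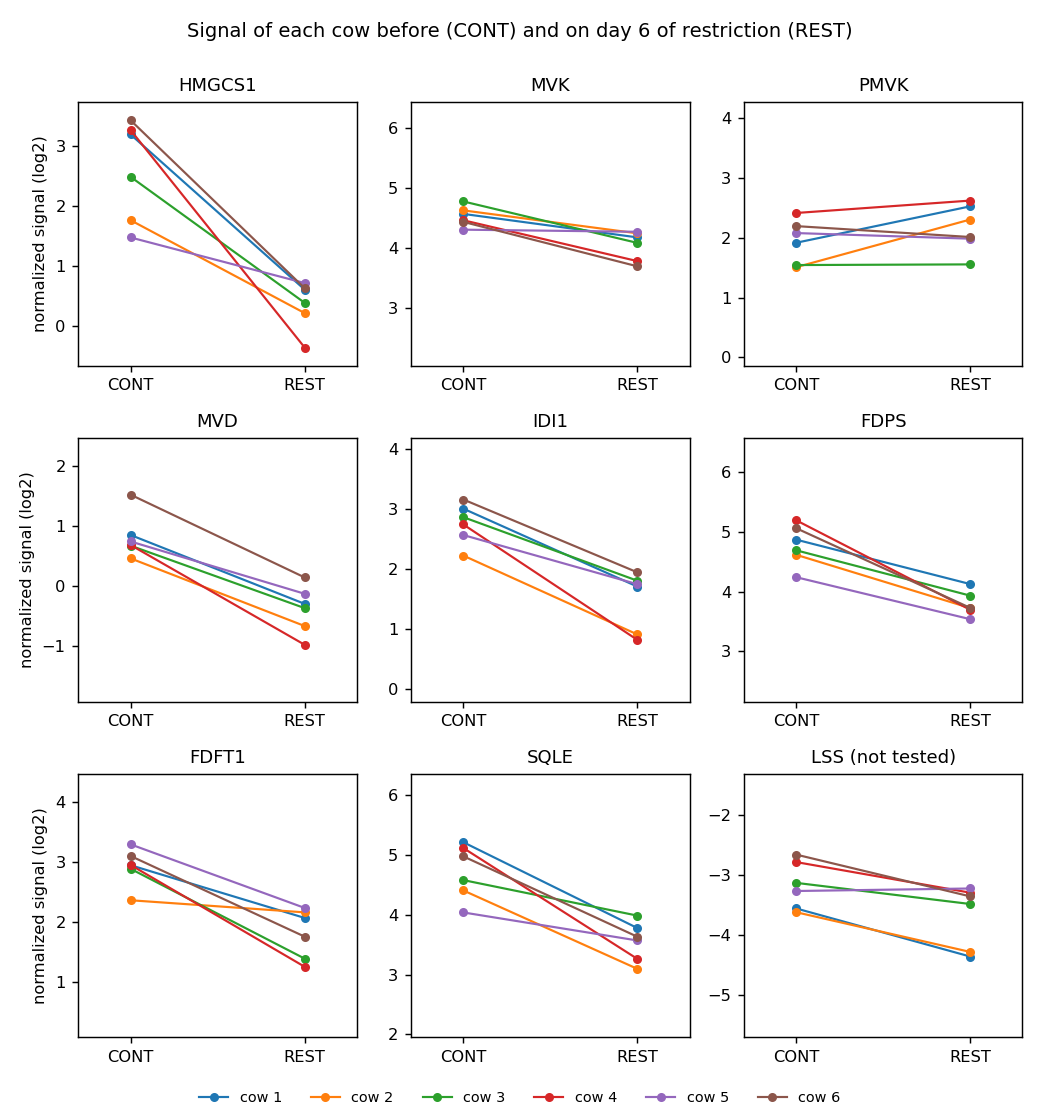
Normalized signal (log2, relative to the 75th percentile of each array) of the main probe of each gene in CONT and REST, with 1 coloured line per cow and the same axis span of log2 units in every panel. The HMGCS1 lines fall from 1.47 to 3.43 in CONT to -0.36 to 0.71 in REST, the PMVK lines run both up and down, and the LSS probe was not above background on the arrays of cows 5 and 6.

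MVK and PMVK add the first and the second phosphate to mevalonate, and they had the smallest changes of the 8 genes tested. The MVK main probe ranged from 4.30 to 4.77 in CONT (median 4.51) and from 3.69 to 4.26 in REST (median 4.12). The groups did not overlap, but they came close: cow 5 read 4.30 in CONT and 4.26 in REST. The change was -0.49 with a standard error of 0.11 (adjusted p = 0.0342), and the second MVK probe changed by -0.51 (standard error 0.10, adjusted p = 0.0221). MVK was lower in 6 of 6 cows by both probes. The REST spot of cow 6 was not above background for the second probe. The main probe was not called when cow 4 was left out (-0.45, adjusted p = 0.103).

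PMVK ranged from 1.51 to 2.41 in CONT (median 1.996) and from 1.55 to 2.62 in REST (median 2.16). The groups overlapped almost wholly. The difference was 0.22 with a standard error of 0.14 and a 95% interval from -0.09 to 0.54 (adjusted p = 0.330), so that neither a small fall nor a rise of up to 0.54 was outside the interval. Probe 2 of PMVK differed by 0.14 with a 95% interval from -0.28 to 0.56 (adjusted p = 0.664). The PMVK differences were not of 1 direction across slides, each of which held only 2 cows, so that slide and cow cannot be told apart. The mean difference was 0.70 in cows 1 and 2 (slide 1), 0.11 in cows 3 and 4 (slide 2) and -0.14 in cows 5 and 6 (slide 3), and the second probe gave 0.70, 0.18 and -0.46. With normexp background correction, PMVK was called higher in REST (0.32, adjusted p = 0.0844).

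MVD decarboxylates mevalonate diphosphate to isopentenyl diphosphate, the building unit of all isoprenoids, and IDI1 turns that unit into its reactive isomer dimethylallyl diphosphate. MVD ranged from 0.46 to 1.53 in CONT (median 0.72) and from -0.98 to 0.14 in REST (median -0.33). All REST arrays lay below all CONT arrays, although cow 6 was high in both groups. The change was -1.21 with a standard error of 0.11 (adjusted p = 0.00274), and the second probe changed by -1.13 (standard error 0.09, adjusted p = 0.00122). No cow had an MVD change smaller in size than the -0.87 of cow 5.

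IDI1 ranged from 2.23 to 3.16 in CONT (median 2.81) and from 0.82 to 1.95 in REST (median 1.73). Again the groups were apart, with cows 2 and 4 lowest in REST. The change was -1.27 with a standard error of 0.13 (adjusted p = 0.00457), and probe 2 changed by -1.33 (standard error 0.12, adjusted p = 0.00274).

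FDPS joins isopentenyl and dimethylallyl diphosphate to farnesyl diphosphate, from which the sterol route and the isoprenoid branches part. It ranged from 4.24 to 5.19 in CONT (median 4.78) and from 3.54 to 4.12 in REST (median 3.73). The highest REST array, that of cow 1, was below the lowest CONT array, that of cow 5. The change was -0.99 with a standard error of 0.12 (adjusted p = 0.00711), and probe 2 changed by -1.06 (standard error 0.12, adjusted p = 0.00467). REST values varied less among cows (SD 0.21) than CONT values (SD 0.34), a difference that was not tested.

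FDFT1, squalene synthase, couples farnesyl diphosphate head to head and so commits carbon to sterols. Its main probe ranged from 2.36 to 3.29 in CONT (median 2.95) and from 1.25 to 2.23 in REST (median 1.91). The groups did not overlap, but cow 2, the lowest in CONT, barely moved. The change was -1.11 with a standard error of 0.18 (adjusted p = 0.0135). Probes 2 and 3 changed by -0.98 (adjusted p = 0.0127) and -0.91 (adjusted p = 0.0241). By the 3 probes the change of cow 2 was -0.20, -0.30 and 0.07, and the mean change on slide 1, which held cows 1 and 2, was -0.54 for the main probe, beside -1.60 on slide 2 and -1.20 on slide 3.

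SQLE, squalene epoxidase, adds the first oxygen to squalene and had 1 probe. It ranged from 4.04 to 5.21 in CONT (median 4.78) and from 3.095 to 3.98 in REST (median 3.60). The groups lay apart by a small gap, between cow 3 in REST and cow 5 in CONT. The change was -1.17 with a standard error of 0.18 (adjusted p = 0.0108). Cows 3 and 5 changed least, by -0.59 and -0.47, and the other 4 cows by -1.85 to -1.31.

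LSS closes the epoxide to lanosterol, and its single probe was above background on 4 of 6 arrays in each group, those of cows 1 to 4. It ranged from -3.62 to -2.66 in CONT (median -3.20) and from -4.36 to -3.22 in REST (median -3.42). The groups overlapped. In the 4 cows with both arrays above background, all 4 were lower in REST (mean change -0.58, SD 0.19). When all probes were fitted, LSS differed by -0.50 with a standard error of 0.13, which was not called (adjusted p = 0.147).

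**Figure D2:**
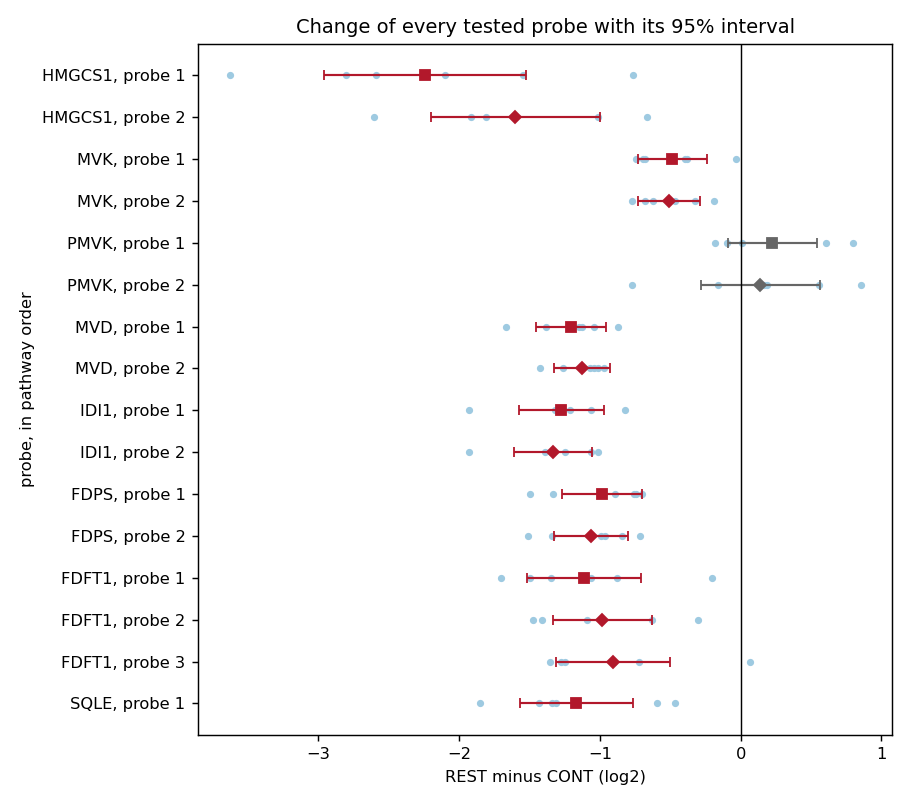
REST minus CONT (log2) for the 16 tested probes in pathway order, with the limma estimate and its 95% interval (squares, main probe; diamonds, further probes; red, adjusted p below 0.10; grey, not called) and the change in each cow (light blue points). The estimates run from -2.24 for HMGCS1 to 0.22 for PMVK, and only the intervals of the PMVK probes reach 0.

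The changes of the 8 genes were not of equal size. They were compared pairwise within cows by an exact two-sided sign-flip test over the 6 cows, which cannot give a p below 0.03125. After Benjamini-Hochberg adjustment over the 28 pairs that smallest p becomes 0.0673, and 20 pairs were below 0.10. The 7 pairs with HMGCS1 were all among them, as were the 7 with MVK and the 7 with PMVK. HMGCS1 minus MVD was -1.03 (SD 0.76, n = 6), and MVK differed from PMVK by -0.71 (SD 0.44). These pairs used the main probe of each gene. As means over the tested probes of each gene, HMGCS1 changed by -1.78 and MVD by -1.17, and the pairs were not tested on such means. Dim probes can understate a change, and the part of probe brightness in these differences was not tested.

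Among MVD, IDI1, FDPS, FDFT1 and SQLE, 2 of 10 pairs passed. FDPS changed less than MVD (MVD minus FDPS -0.22, SD 0.12) and less than IDI1 (IDI1 minus FDPS -0.29, SD 0.25). The other pairs of these 5 genes differed by -0.16 to 0.18 on average, with differences in single cows from -1.11 to 1.11, so that 6 cows leave room for unequal changes.

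The cows differed in how far the route changed. Cow 4 had the most negative change for HMGCS1, MVD, IDI1, FDPS, FDFT1 and SQLE. Cow 5 had the least negative change for HMGCS1, MVK, MVD, IDI1, FDPS and SQLE. FDFT1 went otherwise, with cow 2 least changed, and for MVK the most negative change was in cow 6. The median over the 8 genes was -1.02, -1.01, -0.90, -1.68, -0.73 and -1.34 in cows 1 to 6. By slide, the median was -0.98, -1.29 and -1.02. The changes of 1 cow share the same pair of arrays and are not independent of each other.

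**Figure D3:**
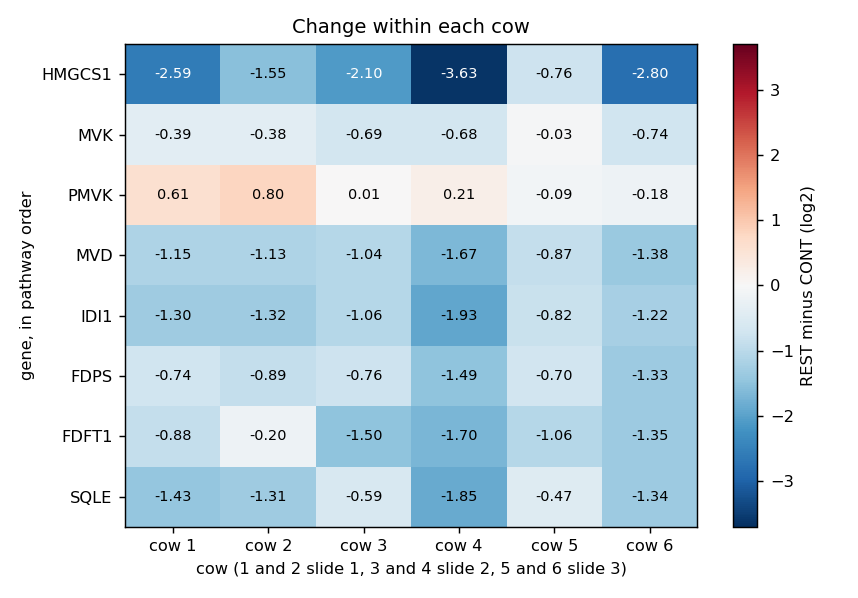
Change (REST minus CONT, log2) of the main probe of the 8 tested genes in each of the 6 cows, in pathway order, with blue for lower and red for higher in REST. The column of cow 4 holds the -3.63 of HMGCS1, cow 5 has the palest column, and the PMVK values run from -0.18 to 0.80.

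Calls in the lists that follow are those of the main probe of each gene. Of 10 genes for the enzymes that carry lanosterol on to cholesterol, 9 were called lower and none higher, with a median of -0.76, beside 9.27% of all tested genes called lower. The fit without the cow called 7 lower, beside 2.8% of all genes. TM7SF2, a sterol C14 reductase, changed by -1.48 (adjusted p = 0.00122), CYP51A1, the lanosterol demethylase, by -1.25 (adjusted p = 0.00460), and NSDHL, a C4 decarboxylating dehydrogenase, by -1.06 (adjusted p = 0.0193). LBR, which also has sterol C14 reductase activity beside its role in the nuclear envelope, went the other way: it was higher in 6 of 6 cows by both of its probes, with 0.21 for the main probe (adjusted p = 0.116) and 0.28 for the other, which was called (adjusted p = 0.0658) but not without the cow as a block (adjusted p = 0.270).

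The isoprenoid branches off this route lead to dolichol, ubiquinone, the prenylation and later processing of proteins, and tRNA modification. Of 16 genes of these branches, 12 were tested, 1 was called lower and none higher, with a median of -0.07, a share near the 9.27% of all tested genes. The gene called was RABGGTA, a subunit of the Rab geranylgeranyl transferase (-0.40, adjusted p = 0.0225). The other 4 were too dim to test or were not matched to a probe.

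Upstream of HMGCS1, ACSS2, which makes cytosolic acetyl-CoA from acetate, changed by -1.60 (adjusted p = 0.00460), whereas ACLY, which makes it from citrate, differed by -0.11 (adjusted p = 0.412). ACAT2 was not tested and SLC25A1 was not matched. Of 7 sterol sensing genes tested, 1 was called lower, near the 9.27% of all tested genes. It was INSIG1, which holds the SREBP escort protein in the endoplasmic reticulum (-1.98, adjusted p = 0.00774). SREBF2, which encodes SREBP2, differed by -0.24 (adjusted p = 0.130) and SREBF1 by -0.09 (adjusted p = 0.771), and the median of the 7 was -0.11. MBTPS1, a protease that cuts SREBP, was not called by its main probe (0.12, adjusted p = 0.414), whereas its other probe, which passed the filter through REST alone, was called higher (0.70, adjusted p = 0.0886), though not without the cow as a block (adjusted p = 0.217).

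**Figure D4:**
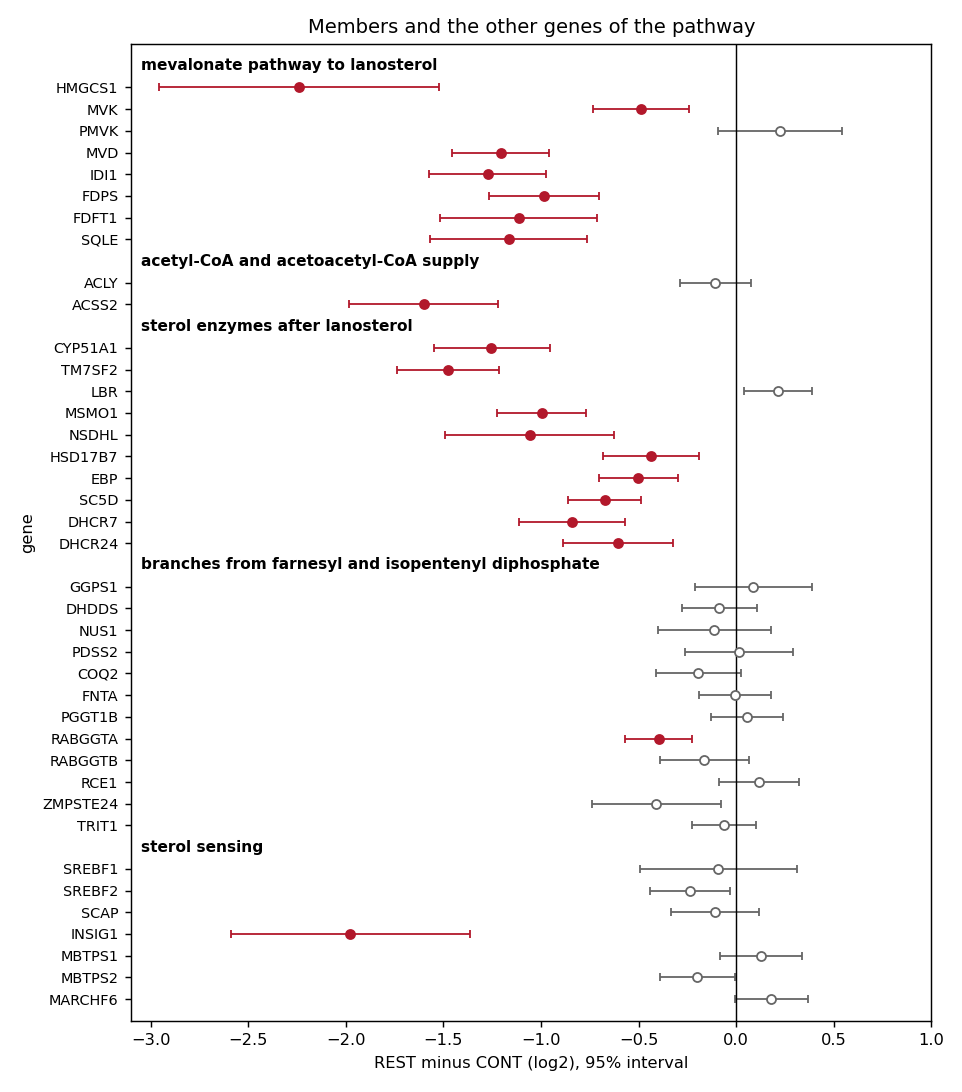
REST minus CONT (log2) with its 95% interval for the main probe of the member genes and of the other genes of the pathway that were tested, by list (filled red, adjusted p below 0.10; open grey, not called). The called genes lie in the route to lanosterol and in the 9 sterol enzymes after it, with ACSS2, RABGGTA and INSIG1 the only others in these lists.

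Markers of the tissue were measured beside these genes. Of 11 markers of lactating epithelium, 10 were tested, and their mean level ran from 6.87 to 7.23 in CONT and from 6.92 to 7.30 in REST. With the cow as a block, KRT8 (0.72) and KRT18 (0.52), keratins of luminal cells, were called higher, where 6.94% of all tested genes were. The main probes of the milk protein genes CSN1S1 (-0.26), CSN1S2 (-0.18), CSN3 (-0.28), LALBA (-0.20) and PAEP (-0.17) were lower in 6 of 6 cows, and those of CSN1S1 and CSN3 were called. Of all tested genes, 9.27% were called lower, and of all tested probes 8.78%. The milk protein changes were of the size of the shift removed by the scaling, 0.17 to 0.45, and its part in them was not tested. Probes of a gene did not always give the same call: over all probes, 1 of 6 was called for CSN1S1, 4 of 5 for CSN1S2, 1 of 2 for CSN3, 1 of 2 for LALBA and none of 3 for PAEP. For KRT8, 2 of 3 probes were called higher and the other read -0.14 (adjusted p = 0.554), and for KRT18, 2 of 3 were called higher and the other read 0.38 (adjusted p = 0.269). Without the block none of the 10 genes was called. VWF (0.54, of 4 endothelial genes), CD3E (0.35, of 6 leukocyte genes), ACTA2 (-0.38, of 5 myoepithelial genes) and CIDEA (-0.27) were called with the block, and of these VWF alone without it (adjusted p = 0.0539). CIDEA was the 1 gene of the adipocyte list tested. It is also known from the lactating epithelium, and LEP, PCK1 and PLIN1 of that list were too dim to test. None of 6 fibroblast genes was called by its main probe (median -0.36), and 1 of 3 probes of COL1A1 was called lower with the block (-0.38, adjusted p = 0.0783) but not without it (adjusted p = 0.538). The mean level of each list overlapped between the groups, at 5.56 to 8.04 in CONT and 5.24 to 7.62 in REST for CIDEA, 1.91 to 2.81 and 1.41 to 2.90 for fibroblast, 0.35 to 1.02 and 0.70 to 0.88 for endothelial, 0.41 to 0.63 and 0.32 to 0.89 for leukocyte, and 2.33 to 2.99 and 2.26 to 2.91 for myoepithelial genes. The part of cell composition in the pathway changes was not tested.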

How the data were processed

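Gene expression was measured on 12 one-colour (Cy3) bovine 4 x 44K arrays from 6 cows. The authors scanned the arrays and read the images with Agilent Feature Extraction (version 11, per the labels), and the deposited files hold spot intensity values. The deposited value table was identical to the scanner's processed signal. The methods name a 75th percentile shift and moderated tests with Benjamini-Hochberg adjustment at 0.10, without saying whether they were paired.

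Here, log2 of the processed signal was set relative to each array's 75th percentile over non-control probes, spots that the scanner software marked for non-uniformity or as outliers were dropped, and repeated spots were averaged. Probes well above background on all 6 arrays of either group were tested, 19403 of 43653. Changes were fitted with limma 3.58.1 in R 4.3.3, with the cow as a fixed block, and p-values were adjusted over all tested probes. No array had a saturated spot. The number of arrays limits the precision.

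The cow pairs the samples by animal in the labels. Deviations from the group means correlated at 0.36 to 0.57 within a cow and at -0.33 to 0.13 between cows. Each slide held 2 cows with both groups. The genes and lists were chosen with earlier results of these data known. All probes of the 9 genes are reported; of each other list, up to 3 called genes with the largest change are named. ACLY, LBR, SREBF1, SREBF2, MBTPS1 and the cell type markers fall outside that rule and were named with their values known. Gene symbols were taken from RefSeq (assembly ARS-UCD2.0) through the transcript named for each probe in the array files, which gave a symbol to 27131 probes. The fits were tested on simulated data. Normexp used the median signal, since no mean signal column was in the files used. No promoter or protein sequences were used here, and some related genes are not reported here.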

Additional observations from a re-analysis of the deposited data

Results flagged for a closer look

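In 3 of 54 groups of values of the member probes, 1 cow stood apart from the others by Dixon's criterion, where chance gives about 2.7. All 3 were values of cow 6. MVK probe 2 read -2.24 in REST, below the -1.79 to -1.59 of the other cows, and that spot was not above background. MVD probe 1 read 1.53 in CONT, above the 0.46 to 0.85 of the others. MVD probe 2 read 0.92 in CONT, above the -0.27 to 0.03 of the others.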

How the results depend on the processing

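The calls of HMGCS1, MVD, IDI1, FDPS, FDFT1 and SQLE kept their direction and their side of the threshold under the 19 alternatives run for each. Among these, the fit to the deposited value table used the same values as the main fit, so that its result was fixed in advance. MVK was not called with no filter on dim probes (-0.49, adjusted p = 0.137) or without cow 4 (-0.45, adjusted p = 0.103), and its adjusted p otherwise reached 0.00931 at the lowest. PMVK was called higher with normexp (0.32, adjusted p = 0.0844) and at no other setting, over adjusted p-values up to 0.669. The number of genes called lower was 6 or 7, and the median change of the 8 tested genes lay between -1.20 and -0.92, the latter with normexp. Leaving out 1 cow at a time gave 6 to 7 genes and medians of -1.20 to -1.01. With the marked spots kept, HMGCS1 probe 2 was not called (-0.50, adjusted p = 0.740).

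Of all probes tested, 3104 were called with the cow as a block. The fit without the replicate block called 838, the slide as a block 1900, no filter 386 and no moderation 1860. Leaving out each cow gave 1056 to 3284, with 1534 without cow 1, 1056 without cow 2 and 1198 without cow 4. The causes were not tested. Pairing by cow changed no call of the 16 member probes. Spots were dimmer on slide 3, where 41.9% to 48.0% were well above background, beside 61.8% to 67.9% on the others, and this limits LSS. HMGCS1 probe 3 was above background on 3 REST arrays, so that it also fell short in REST outside slide 3.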

Other observations

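Of 1266 called genes outside the route and the other pathway lists, the 5 whose signal over the 12 arrays was most like the mean profile of the 8 member genes were TRH, SLC11A2, NDUFB9, CYB5B and EIF3I. TRH, thyrotropin-releasing hormone, had a Pearson r of 0.98 over the arrays and 0.97 over the 6 within-cow changes, and its own change was -2.12 (standard error 0.26, adjusted p = 0.00675). CYB5B, an outer mitochondrial membrane cytochrome b5, had an r of 0.94 over the arrays and 0.70 over the changes, with a change of -0.98. SLC11A2 is a divalent metal ion transporter, NDUFB9 a complex I subunit and EIF3I a translation initiation factor subunit. Over the arrays their r was 0.96, 0.96 and 0.94, and over the within-cow changes it was 0.75, 0.72 and 0.58. Their own changes were -0.48, -0.36 and -0.63. All 5 were lower in 6 of 6 cows. These genes were picked for this likeness, and r over the arrays includes the difference between the groups, so that it is a description with no test.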
